A study of Mus musculus with 8 samples.

Results

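Described here are 5 loci of the mouse genome that appear in these small RNA count tables under 2 names. Each appears once as a microRNA (miRNA) and once as a small nucleolar RNA (snoRNA) at an overlapping position. The 10 rows form 5 pairs: mmu-mir-3535 with Gm24148, mmu-mir-677 with Mir677, mmu-mir-664 with Snora36b, mmu-mir-3068 with Mir3068, and AL645522.1 with Gm24958. They were chosen by name for their overlapping positions, out of 5518 rows in all, with earlier results of these data known. By position alone the tables hold 19 overlapping pairs of a miRNA row and a snoRNA row, of which 14 had a count in any library. Despite its symbol, Mir3068 is the snoRNA-typed row of its pair, and so is Mir677.

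The libraries fall into 3 groups. Mouse embryonic stem (MES) cells of the line B6G-2 gave 2 libraries by TEsR, a target-enrichment method run on a MiSeq in which small RNAs of all lengths receive linkers, lose their caps, are amplified and are then pulled out by hybridisation to probes. Mouse embryonic fibroblasts (MEFs) gave 4 libraries by TEsR and 2 libraries by TruSeq small RNA sequencing on a HiSeq. All fibroblasts carry a TRF2 allele that Cre can delete, TRF2 being a protein that protects telomere ends, and the Rosa26-CreERT2 transgene, a tamoxifen-activated Cre recombinase expressed from a broadly active locus. In induced cells Cre was activated with 0.6 µM 4-hydroxytamoxifen for 48 hours, and the TruSeq libraries are titled as induced. The 4 TEsR columns of MEFs are named MEFmm S1, MEFmm S2, MEFpm S1 and MEFpm S2, codes with no key in the labels, so induced and uninduced fibroblasts form a single group there. The TruSeq libraries are named by their indexes, ATCACG and CGATGT. MEF TEsR and MEF TruSeq libraries therefore differ in method, instrument and the share of induced cells, and these cannot be told apart. MES and MEF TEsR libraries differ in cell type and in induction, which the MES cells did not receive. The TRF2 allele and the transgene are given for the fibroblasts only, so these too cannot be told apart from cell type. Whether libraries of a group stem from separate cultures is not stated, and the p-values reflect only the spread among these libraries, which may be technical.

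Library totals were 2676776 and 2785150 counts in MES, 3221641 to 3768668 in MEF TEsR and 8442960 and 8961221 in MEF TruSeq. The 2 leading rows of each library held 67.8% to 83.1% of its counts, Snord68 and Snord70 in the TEsR libraries and Gm23212 and AC161199.1 in the TruSeq libraries. Of 10 miRNAs known from embryonic stem cells (the Mir290 and Mir302 clusters), 10 had counts in both MES libraries, with a summed level of 449 and 489 CPM (the count divided by the library's total and given for 1000000 counts), against at most 1.33 CPM in MEF TEsR and 0 in MEF TruSeq. Of 10 miRNAs known from fibroblasts, 3 and 4 had counts in MES, 6 or 7 in MEF TEsR and 9 and 10 in MEF TruSeq, with summed levels of 132 and 142, 4624 to 20737, and 60.8 and 95.1 CPM. The 4 MEF TEsR libraries thus spanned more than 4-fold in that sum. Most of the sum by TEsR was Mir21a, with 61052 of 63034 counts in MEFmm S1 and 17008 of 17428 in MEFmm S2. Mir21a had 69764 of 73341 in MEFpm S1, 36842 of 38848 in MEFpm S2, and 350 of 367 and 370 of 381 in MES. In MEF TruSeq it had only 55 of 852 and 75 of 513.

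Most miRNAs are cut from a hairpin precursor by Drosha and Dicer, and the mature strand, loaded on an Argonaute protein, recognises messenger RNAs mainly through its seed. SnoRNAs sit in the nucleolus, where box C/D snoRNAs guide ribose methylation and H/ACA snoRNAs guide pseudouridylation of ribosomal RNA, and in mammals most are released from introns of host genes during splicing. Some snoRNAs are also a source of miRNA-sized fragments. The same stretch of genome can therefore carry a miRNA and a snoRNA annotation.

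The snoRNA-typed rows are shown 5′ to 3′ to show where the miRNA lies in each. Capitals mark the mature miRNAs of RefSeq (GRCm38.p6). In Gm24958, for which the RefSeq table used here lists no mature miRNA, capitals mark instead the letters ATGATGA and the last CTGA. The rows are read from GENCODE vM21 (GRCm38, the mm10 build of the tables).
Gm24148 (chr1:86352008-86352087, minus strand): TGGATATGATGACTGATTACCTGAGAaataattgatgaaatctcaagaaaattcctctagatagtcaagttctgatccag
Mir677 (chr10:128085289-128085360, plus strand): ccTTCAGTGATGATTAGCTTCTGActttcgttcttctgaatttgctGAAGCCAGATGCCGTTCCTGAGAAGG
Snora36b (chr1:185242907-185243038, plus strand): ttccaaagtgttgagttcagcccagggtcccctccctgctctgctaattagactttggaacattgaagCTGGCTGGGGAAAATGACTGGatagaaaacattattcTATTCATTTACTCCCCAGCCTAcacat
Mir3068 (chr12:87437682-87437817, minus strand): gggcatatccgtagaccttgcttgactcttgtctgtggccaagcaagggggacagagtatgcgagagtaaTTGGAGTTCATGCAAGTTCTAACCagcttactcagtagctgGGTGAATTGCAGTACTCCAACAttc
Gm24958 (chr11:5038211-5038307, plus strand): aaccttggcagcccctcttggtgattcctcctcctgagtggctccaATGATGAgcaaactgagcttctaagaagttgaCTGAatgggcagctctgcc

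RefSeq lists mature miRNAs for 4 of the 5 miRNA rows, 7 in all, and the hairpin it gives equals the miRNA row letter for letter in all 4. Below, capitals mark the seed, bases 2 to 8. No seed is shared among the 7, and none of the other mature miRNAs among the 1679 in the table has one of these seeds.
mmu-miR-3535: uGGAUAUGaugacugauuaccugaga
mmu-miR-677-5p: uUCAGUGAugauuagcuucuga
mmu-miR-677-3p: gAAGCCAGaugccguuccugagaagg
mmu-miR-664-5p: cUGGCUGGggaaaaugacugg
mmu-miR-664-3p: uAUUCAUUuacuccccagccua
mmu-miR-3068-5p: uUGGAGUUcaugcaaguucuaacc
mmu-miR-3068-3p: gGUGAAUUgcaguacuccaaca

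In 3 pairs the miRNA row contains the snoRNA row whole. The mmu-mir-3535 row (chr1:86351981-86352127, 147 bases) runs 40 bases past the 5′ end and 27 past the 3′ end of the 80-base Gm24148. The mmu-mir-677 row (chr10:128085286-128085363, 78 bases) runs 3 bases past each end of the 72-base Mir677, and the AL645522.1 row (chr11:5038204-5038307, 104 bases) runs 7 bases past the 5′ end of the 97-base Gm24958. In the other pairs the miRNA row covers only the 3′ part of a longer snoRNA row. The mmu-mir-664 row (chr1:185242975-185243043, 69 bases) shares 64 bases with the 132-base Snora36b and leaves 68 bases at its 5′ end uncovered. The mmu-mir-3068 row (chr12:87437679-87437757, 79 bases) shares 76 bases with the 136-base Mir3068 and leaves 60 bases at its 5′ end uncovered.

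The letters of the snoRNA boxes were then placed against the mature miRNAs. Box C of C/D snoRNAs was searched as ATGATGA or GTGATGA, and box D as CTGA, on the row's own strand (the other strand was not searched, since the boxes act in the RNA). In Gm24148 the box C letters are at bases 6 to 12, within mmu-miR-3535, whose first base is the first base of the snoRNA row, while the last CTGA, at bases 72 to 75, lies outside it. In Mir677 the box C letters at bases 7 to 13 lie within mmu-miR-677-5p, and the last CTGA, at bases 64 to 67, lies within mmu-miR-677-3p, which ends on the last base of the row. In Gm24958 both letter sets are present, but ATGATGA starts only at base 47 and the last CTGA ends 15 bases from the 3′ end. Snora36b and Mir3068 have neither, and instead carry ACA 3 bases from the 3′ end, the tail of H/ACA snoRNAs, where the first base of ACA in Snora36b is the last base of mmu-miR-664-3p and ACA in Mir3068 lies within mmu-miR-3068-3p. Of all 1414 snoRNA rows of 69 to 147 bases with a transcript sequence, 21.6% hold ATGATGA or GTGATGA followed anywhere by CTGA and 18.1% have ACA at that place. Among 1780 miRNA rows of those lengths the shares were 0.393% and 3.76%.

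**Figure D1:**
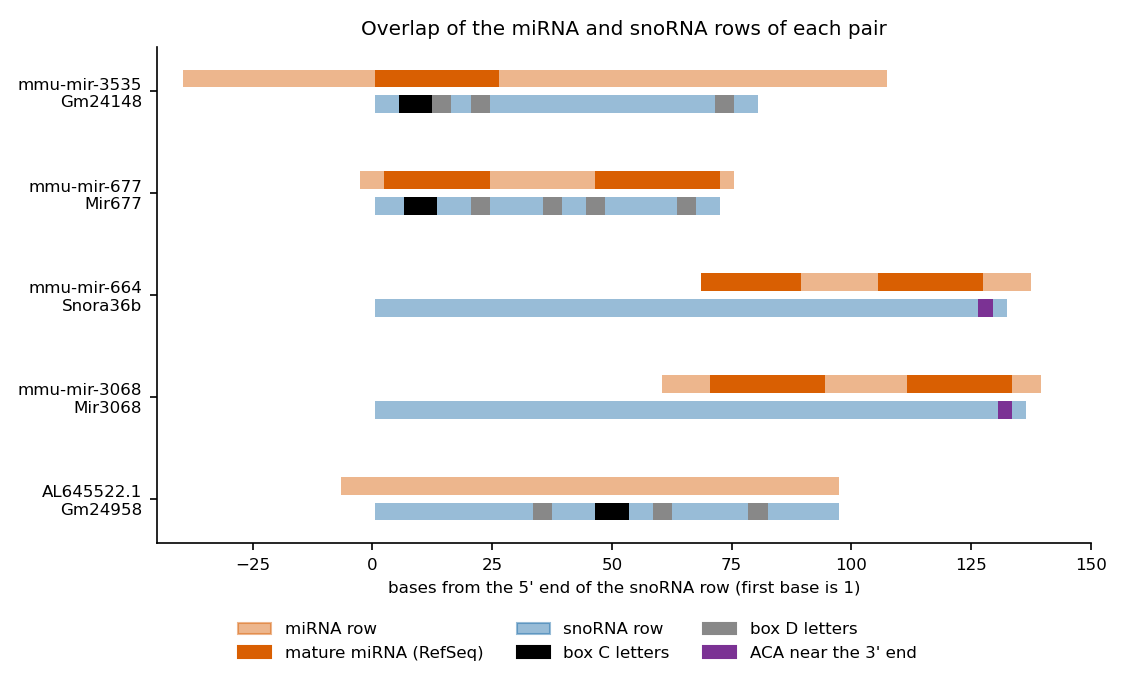
Position of the miRNA row (orange, mature miRNAs in full colour) above the snoRNA row (blue) of each pair, in bases from the 5′ end of the snoRNA row. The letters of box C (black), box D (grey) and ACA (purple) are marked on the snoRNA row. The miRNA rows of mmu-mir-664 and mmu-mir-3068 leave the 5′ 68 and 60 bases of their snoRNA rows uncovered.

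All 5 loci lie in protein-coding host genes on the host's strand. Gm24148 lies in Ncl, which encodes nucleolin, a main protein of the nucleolus, and mmu-mir-3535 and Gm24148 overlap an exon of a retained-intron transcript of that gene by 83 and 56 bases. The other loci are intronic. The mmu-mir-677 locus is in Atp5b, which encodes the beta subunit of mitochondrial ATP synthase. The mmu-mir-664 locus is in Rab3gap2, which encodes a subunit of an activator of Rab GTPases. The mmu-mir-3068 locus is in Alkbh1, a member of the AlkB family of dioxygenases, and also overlaps the lincRNA Gm29362. The AL645522.1 locus is in Ap1b1, which encodes a subunit of the AP-1 clathrin adaptor. RefSeq types the loci differently: it has a miRNA at Gm24148, at Mir677 and at Mir3068, a snoRNA and a miRNA at Snora36b, and a snoRNA at Gm24958.

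Within the pairs, the counts were the same number in every TEsR library. The pairs mmu-mir-3535 with Gm24148, mmu-mir-677 with Mir677 and AL645522.1 with Gm24958 had equal counts in all 8 libraries. Both rows of the first pair had 166 and 139 counts in MES 1 and MES 2, 2472, 4740, 4084 and 5788 counts in MEFmm S1, MEFmm S2, MEFpm S1 and MEFpm S2, and 2396 and 2492 counts in the TruSeq libraries ATCACG and CGATGT. The 40 and 27 bases of mmu-mir-3535 outside Gm24148 thus added no count in any library. Both rows of the mmu-mir-677 pair had 123 and 158 counts in MES, 28, 36, 48 and 20 in MEF TEsR, and 1239 and 2709 in MEF TruSeq, in the same order of libraries. Both rows of the AL645522.1 pair had 0 counts in all 6 TEsR libraries and 20 and 39 in MEF TruSeq. A pair with equal counts gives 1 measurement, printed in the tables under both names.

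The mmu-mir-3068 pair was equal by TEsR and unequal by TruSeq. Both rows had 3 and 1 counts in MES and 115, 67, 100 and 77 counts in MEF TEsR. In MEF TruSeq, mmu-mir-3068 had 149 and 96 counts while Mir3068 had 330 and 243, so that 181 and 147 counts fell on the snoRNA row alone, whose uncovered part is the 5′ 60 bases. The miRNA row's count was 100% of the snoRNA row's in each MEF TEsR library, against 42.3% ± 4.0 (SD, n = 2) in MEF TruSeq. The lowest exact 95% binomial bound in a MEF TEsR library was 94.6%, and the highest bound in a TruSeq library was 50.7%. The 2 groups of libraries did not overlap, and the two-sided exact permutation test gave 0.133, the smallest p that 4 against 2 libraries allow. Intervals here and elsewhere treat every read as independent and leave out the spread between libraries. The reads carried no molecular identifiers, so amplified copies cannot be told apart and the intervals may be too narrow.

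The mmu-mir-664 pair was low throughout. Both rows had 0 counts in MES and 8, 2, 5 and 3 in MEF TEsR. In MEF TruSeq, mmu-mir-664 had 12 and 11 counts and Snora36b had 12 in each. The single count of difference, in CGATGT, fell on Snora36b and not on mmu-mir-664. The miRNA row held 91.7% of the snoRNA row's counts there, with an exact 95% interval of 61.5% to 99.8%, wide at so few counts. Snora36b has 68 bases that mmu-mir-664 does not cover, and in all 8 libraries together 1 count fell on Snora36b alone. A read from these bases that reaches the shared part could be counted on both rows, so their own yield is not known.

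**Figure D2:**
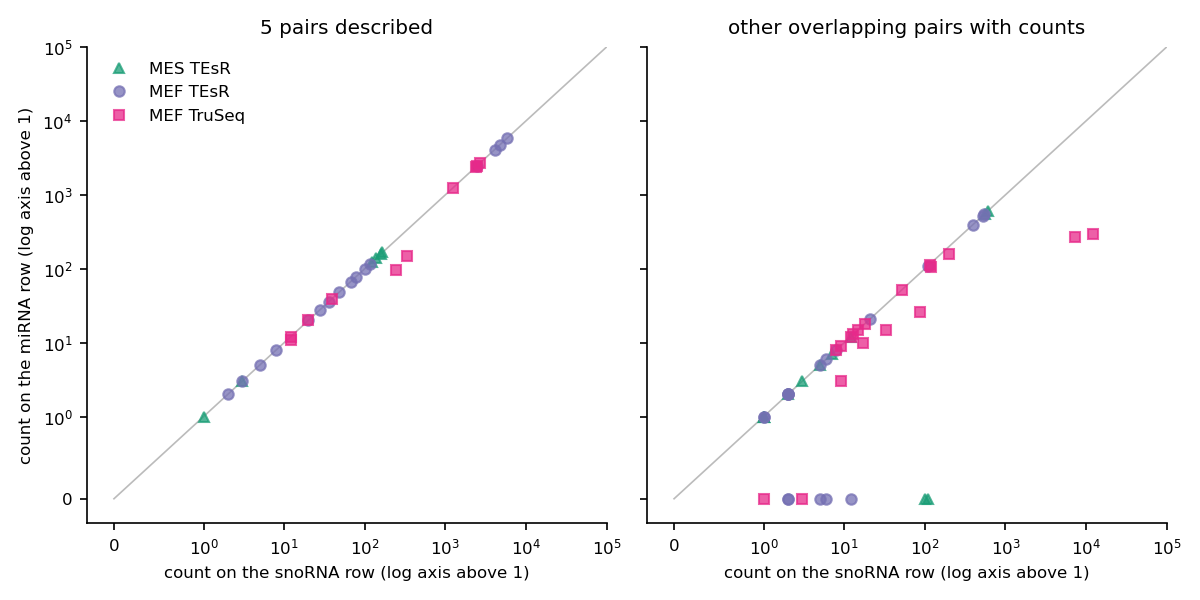
Count on the miRNA row against count on the snoRNA row, both axes logarithmic above 1, for the 5 pairs (left) and the other overlapping pairs with counts (right). Each point is 1 pair in 1 library, and the grey line marks equal counts. On the left, points off the line are TruSeq libraries: the Mir3068 pair at 149 against 330 and 96 against 243, and, beside the line, the Snora36b pair at 11 against 12.

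The other 9 overlapping pairs with counts are given beside these. The 5 pairs were chosen with earlier results of these data known, so the numbers of equal pairs below are a description and not a test. Equal counts in all libraries were found in 2 of these 9 pairs, mmu-mir-1949 with Mir1949 and AC139186.1 with Gm24698, against 3 of the 5 pairs. Counts differed in at least 1 TEsR library in 3 of the 9 pairs, against none of the 5, and in at least 1 TruSeq library in 6 of the 9, against 2 of the 5. The pair with the most counts, mmu-mir-5121 with Snord33, overlaps by only 30 bases, 40.5% of the shorter row. There the miRNA row held 98.5% and 99.1% of the snoRNA row's count in MES and 98.8% ± 0.83 (SD, n = 4) in MEF TEsR, against 3.03% ± 0.84 (SD, n = 2) in MEF TruSeq. Its Snord33 row had 12261 and 7361 counts by TruSeq, against 299 and 267 on mmu-mir-5121, so a near-complete share by TEsR and a small one by TruSeq was also seen outside the 5 pairs. For mmu-mir-1291 with Snora34 the share was 100% in each of the 4 MEF TEsR libraries, which had 2 to 8 counts, against 84.8% ± 5.1 (SD, n = 2) in MEF TruSeq. The pair AC154296.1 with Gm25791 had 7 and 1 counts on both rows in MES and, in TruSeq, 3 and 10 counts on the miRNA row against 9 and 17 on the snoRNA row. The opposite order was seen in AC121821.1 with Snora74a: the miRNA row had 0 counts in all TEsR libraries, where Snora74a had 101 and 111 in MES and 2 to 12 in MEF TEsR, and it held 37.8% ± 11 (SD, n = 2) of the Snora74a count in MEF TruSeq. The pairs AC154540.1 with Snora81 and AC124457.1 with Gm24888 each differed in 1 library, by 4 and 2 counts. For mmu-mir-5121, mmu-mir-1291 and AC121821.1 the two-sided exact permutation test of MEF TEsR against MEF TruSeq gave 0.133, the smallest it can give.

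The levels of the 5 loci followed no common order across the groups. Levels are given as CPM of all counts of a library, in the order MES 1 and 2, then MEFmm S1, MEFmm S2, MEFpm S1 and MEFpm S2, then ATCACG and CGATGT. They compare libraries, not loci, since the rows differ in length. In bulk RNA, fewer cells of a type and less RNA per cell cannot be told apart.

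Gm24148 and mmu-mir-3535 were highest in fibroblasts by TEsR. Their level was 59.6 and 51.9 CPM in MES, 663, 1258, 1155 and 1797 CPM in MEF TEsR, and 267 and 295 CPM in MEF TruSeq. The means were 55.8 ± 5.4 (SD, n = 2), 1218 ± 465 (SD, n = 4) and 281 ± 20 CPM (SD, n = 2), and no group overlapped another. Among the groups, MEF TEsR had the widest spread, with MEFpm S2 highest and MEFmm S1 lowest.

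Mir677 and mmu-mir-677 had the opposite order within TEsR. Their level was 44.2 and 59.0 CPM in MES, 7.51, 9.55, 13.6 and 6.21 CPM in MEF TEsR, and 138 and 321 CPM in MEF TruSeq. MEF TEsR was thus the lowest group and MEF TruSeq the highest. No MES library was made by TruSeq, so the order of the cell types by that method is not known. The means were 51.6 ± 10.5 (SD, n = 2), 9.21 ± 3.2 (SD, n = 4) and 230 ± 129 CPM (SD, n = 2), and the groups did not overlap, although the TruSeq libraries differed from each other by more than any other pair of libraries of a group at this locus.

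At the mmu-mir-3068 locus both rows were near the limit of detection in stem cells. Mean levels were 0.725 ± 0.50 CPM in MES (SD, n = 2), resting on 4 counts in all, and 25.2 ± 5.7 CPM in MEF TEsR (SD, n = 4), with libraries between 17.8 and 30.8 CPM. In MEF TruSeq, mmu-mir-3068 had 16.6 and 11.4 CPM and Mir3068 had 36.8 and 28.8 CPM. The MEF TEsR libraries lay above the TruSeq libraries for the miRNA row and overlapped them for the snoRNA row at this scale. For Mir3068 the order of the means turned with the scaling: without the 2 leading rows of each library it had 122 CPM in MEF TEsR and 109.5 CPM in MEF TruSeq, while mmu-mir-3068, with 122 and 46.9 CPM, kept its order.

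The other loci were scarce. At the mmu-mir-664 locus 0 counts in MES allow up to 1.08 and 1.12 CPM, and MEF TEsR had 0.531 to 2.15 CPM, so the MEF TEsR libraries lay on both sides of what 0 counts allow. The locus did not pass the filter of the test, and without the filter edgeR's adjusted p for MES against MEF TEsR was 0.0470 for mmu-mir-664. MEF TruSeq had 1.30 and 1.34 CPM on mmu-mir-664 and 1.34 and 1.42 CPM on Snora36b, within the range of MEF TEsR. At the AL645522.1 locus 0 counts allow up to 1.12 CPM in MES and 0.931 CPM in MEF TEsR, whereas MEF TruSeq had 2.23 and 4.62 CPM. The MEF TruSeq mean was 4.05-fold the floor in MEF TEsR and 3.12-fold the floor in MES, each floor being the mean of 3 counts per library. The spread between the TruSeq libraries does not enter these ratios, so they are not strict bounds. Without CGATGT, the higher TruSeq library, the ratios were 2.64 and 2.03.

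**Figure D3:**
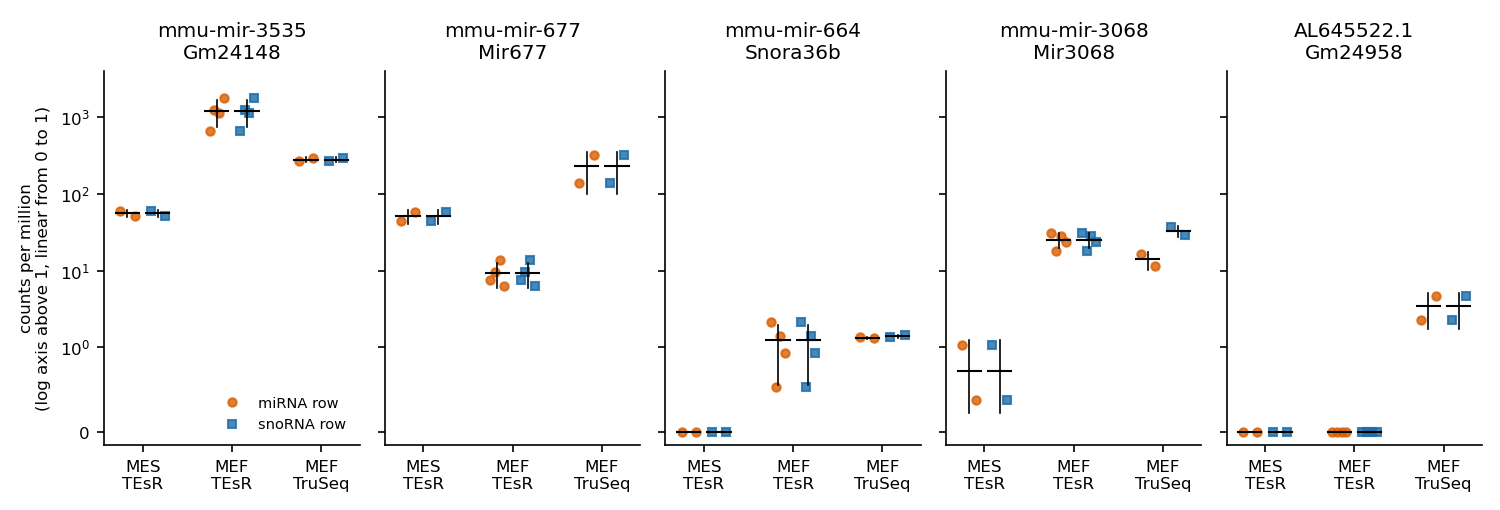
Level in CPM of the miRNA row (orange circles) and the snoRNA row (blue squares) of each pair in every library, with group means (bars) and SD (lines). The axis is logarithmic above 1 and linear from 0 to 1. Gm24148 is highest in MEF TEsR at 663 to 1797 CPM, Mir677 is lowest there at 6.21 to 13.6 CPM, and at the Mir3068 locus the rows separate by TruSeq.

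Differences between groups were tested with edgeR's quasi-likelihood test over all rows of the tables, with p-values adjusted by Benjamini-Hochberg and called at 0.05. Of the 10 rows, 6 passed the filter on low counts, those of the mmu-mir-3535, mmu-mir-677 and mmu-mir-3068 pairs, and they stand for 3 loci. Because the scaling between libraries with such different leading rows is uncertain, the median log2 fold change over the 375 rows tested is given with each comparison. Rows that pass a filter through the group in which they are high had to differ, so the counts of called rows below describe these rows and support nothing more.

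By the same method, Gm24148 and the mmu-mir-3068 locus were lower and Mir677 higher in MES than in MEF TEsR. The log2 fold change was -3.91 ± 0.55 (SE) for mmu-mir-3535 and Gm24148 (edgeR adjusted p = 1.38e-05) and 3.12 ± 0.44 for mmu-mir-677 and Mir677 (edgeR adjusted p = 1.42e-05). It was -4.46 ± 0.77 for mmu-mir-3068 (edgeR adjusted p = 1.02e-04) and -4.46 ± 0.75 for Mir3068 (edgeR adjusted p = 7.74e-05). The median of all rows was 0.53, and relative to it the 4 changes were -4.44, 2.59, -4.99 and -4.99. Of the 6 tested rows, 2 were called higher, where 39.7% of all tested rows were, and 4 lower, where 25.1% were. Over all rows, 149 were called higher and 94 lower. The last count fell to 59 without MES 2 and was 63 without MES 1. Each call on the 6 rows held without any single library, but the size for the mmu-mir-3068 locus rests on few MES counts: both rows were at -5.38 without MES 1 and at -3.90 without MES 2.

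Between methods in fibroblasts, the loci again moved apart. The log2 fold change of MEF TEsR over MEF TruSeq was 2.78 ± 0.51 for mmu-mir-3535 and Gm24148 (edgeR adjusted p = 9.84e-05) and -4.0 ± 0.44 for mmu-mir-677 and Mir677 (edgeR adjusted p = 4.57e-07). For mmu-mir-3068 it was 1.38 ± 0.55 (edgeR adjusted p = 0.0283), a call that was lost without CGATGT (0.90, adjusted p = 0.269) and when library size alone set the scale (0.85, adjusted p = 0.178). Without ATCACG it was 2.13. Over its other alternatives the adjusted p of mmu-mir-3068 was between 9.12e-07 and 0.0311. For Mir3068, the other row of the same pair, the value was 0.17 ± 0.50 (edgeR adjusted p = 0.769), and it was -0.25 without CGATGT and 0.79 without ATCACG. A test of the difference between these rows was not made, since they share reads. Of the 6 tested rows, 3 were called higher in MEF TEsR, where 31.5% of all rows were, and 2 lower, where 54.4% were. The median of all rows was -1.86, with miRNA rows at 5.12 (95 of 132 higher, 10 lower) and snoRNA rows at -4.73 (23 of 223 higher, 175 lower). The locus of mmu-mir-3535 and Gm24148 was thus counted among the 95 miRNA rows and among the 23 snoRNA rows called higher, and that of mmu-mir-677 and Mir677 among the 10 miRNA rows and the 175 snoRNA rows called lower.

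Between MES and MEF TruSeq, where cell and method change together, 2 of the 6 tested rows passed the test. The log2 fold change was -3.08 ± 0.81 for mmu-mir-3068 (edgeR adjusted p = 0.00280) and -4.29 ± 0.78 for Mir3068 (edgeR adjusted p = 1.45e-04). The mmu-mir-3068 call was lost without MES 2 (-2.51, adjusted p = 0.0796), while over its other alternatives the adjusted p was between 4.86e-04 and 0.0358. Its value was -3.99 without MES 1 and -2.31 without ATCACG, and that of Mir3068 was -5.20 without MES 1 and -3.65 without ATCACG. For mmu-mir-3535 and Gm24148 the value was -1.13 ± 0.52 (edgeR adjusted p = 0.0605) and for mmu-mir-677 and Mir677 it was -0.88 ± 0.51 (edgeR adjusted p = 0.131), against a median of -0.69 over all rows. Both passed when library size alone set the scale, at -2.33 (adjusted p = 6.96e-04) and -2.15 (adjusted p = 0.00673) with a median of -1.90, and mmu-mir-3535 and Gm24148 also passed when only these 2 groups were fitted (-0.97, adjusted p = 0.00306). Over the other alternatives the adjusted p was between 0.0983 and 0.321 for mmu-mir-3535 and between 0.0941 and 0.575 for mmu-mir-677. None of the 6 rows was called higher, where 34.4% of all rows were, and 2 were called lower, where 41.1% were. Over all rows the split was 129 higher and 154 lower, or 95 and 190 with library size only.

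**Figure D4:**
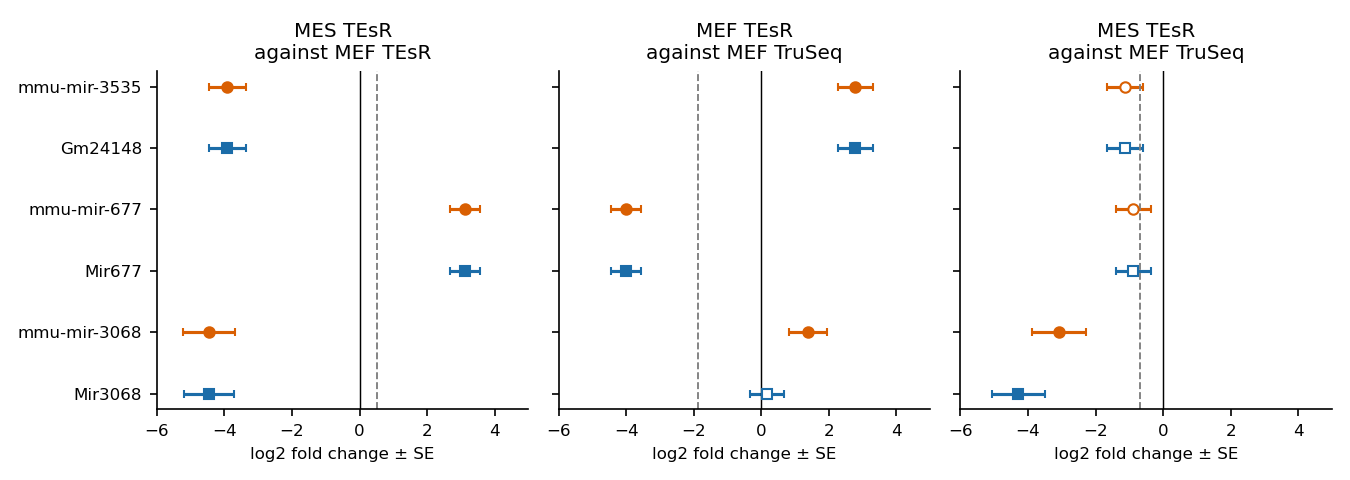
Log2 fold change ± SE of the 6 tested rows in the 3 comparisons, miRNA rows as orange circles and snoRNA rows as blue squares. Filled symbols passed an adjusted p of 0.05, and the dashed line is the median of all 375 rows tested. The rows of the mmu-mir-3535 and mmu-mir-677 pairs coincide in every panel, while mmu-mir-3068 and Mir3068 separate in both comparisons with TruSeq.

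The tables also hold other snoRNAs of the host genes Ncl and Atp5b. Snord82, a box C/D snoRNA of Ncl, had 2208 ± 181 CPM in MES (SD, n = 2), 14.2 ± 5.3 CPM in MEF TEsR (SD, n = 4) and 506 ± 63 CPM in MEF TruSeq (SD, n = 2). Its log2 fold change of MES over MEF TEsR was 7.92 ± 0.43 (edgeR adjusted p = 1.88e-09), whereas that of Gm24148, in the same gene, was -3.91. Of MEF TEsR over MEF TruSeq it was -4.58 ± 0.38 (edgeR adjusted p = 1.86e-08), whereas that of Gm24148 was 2.78. Snora75, an H/ACA snoRNA of Ncl, was at 1.65 ± 0.31, 0.199 ± 0.40 and 5.56 ± 5.0 CPM in the same groups and did not pass the filter. In Atp5b, Snord59a, a box C/D snoRNA, had 374 ± 14 CPM in MES (SD, n = 2), 485 ± 337 CPM in MEF TEsR (SD, n = 4) and 1417 ± 358 CPM in MEF TruSeq (SD, n = 2). The MEF TEsR mean of Snord59a rests on MEFpm S1 at 987 CPM, while MEFmm S1, MEFmm S2 and MEFpm S2 had 267, 318 and 369 CPM. MES, at 384 and 365 CPM, and MEF TEsR overlapped for Snord59a, with a log2 fold change of 0.34 ± 0.40 (edgeR adjusted p = 0.482), where Mir677 had 3.12. The difference between rows of a host was not tested.

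**Figure D5:**
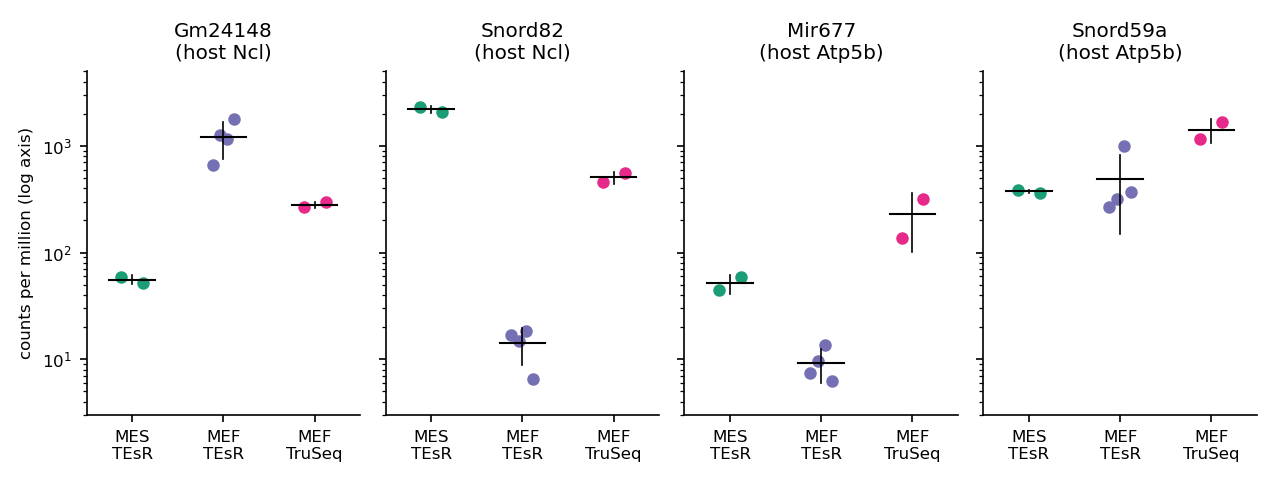
Level in CPM on a logarithmic axis of Gm24148 and Snord82, both in Ncl, and of Mir677 and Snord59a, both in Atp5b, by library, with group means (bars) and SD (lines). Gm24148 is highest and Snord82 lowest in MEF TEsR. Mir677 is lower in MEF TEsR than in MES, while the Snord59a libraries of these groups overlap.

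The miRNA rows of the 5 pairs made up different shares of all counts on miRNA rows. The row AC161199.1, typed miRNA in the annotation but named there Snord43, held nearly all miRNA-typed counts by TruSeq and was left out, a choice made after seeing the data. The 5 miRNA rows then held 3.52% and 3.69% of miRNA counts in MES, 1.24%, 7.71%, 1.59% and 3.68% in MEFmm S1, MEFmm S2, MEFpm S1 and MEFpm S2, and 39.0% and 57.1% in ATCACG and CGATGT. With AC161199.1 left out, the TruSeq shares lay above all TEsR shares, with a two-sided exact permutation p of 0.133 for MEF TEsR against MEF TruSeq, the smallest it can give, and 0.933 for MES against MEF TEsR. The denominators differed: miRNA counts without AC161199.1 were 8306 and 8074 in MES, 62813 to 266761 in MEF TEsR, and 9781 and 9362 in MEF TruSeq. With AC161199.1 kept, the order turned: the share was 3.35% and 3.51% in MES, 1.24% to 7.70% in MEF TEsR, and 0.198% and 0.260% in MEF TruSeq, below every TEsR library. The 5 snoRNA rows made up 0.0105% and 0.0112% of snoRNA counts in MES, 0.0746% to 0.192% in MEF TEsR, and 0.0588% and 0.0891% in MEF TruSeq, where MEF TEsR and MEF TruSeq overlapped.

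Among rows with at least 10 CPM in some group, those most like the snoRNA row of each pair were sought across the 8 libraries. They were snoRNA rows in 12 of 15 cases, where 203 of the 306 candidate rows (66.3%) were snoRNA rows. Likeness was Pearson's r of log2(CPM + 1) with the snoRNA row of the pair, and neither row of the pair was a candidate. It is a description over libraries that share group and depth, and carries no p. For the Gm24148 pair the closest were Gm23344 (r = 0.985), Snord45b (0.966) and Snord72 (0.952), all highest in MEF TEsR. For the Mir677 pair they were Snord118 (0.983), the U8 RNA needed for processing of large-subunit ribosomal RNA, Snora33 (0.981) and Snord49a (0.981), all highest in MEF TruSeq and lowest in MEF TEsR. For the Mir3068 pair they were Gm23301 (0.977), Gm24452 (0.971) and Gm23090 (0.949). For the Snora36b pair they were Gm24452 (0.947), Mir3068 (0.922) and Gm23301 (0.902), Mir3068 being the other row of the 5 with an ACA tail. For the Gm24958 pair, counted by TruSeq only, they were the ribosomal RNA row Rn18s-rs5 (0.997) and the spliceosomal RNA rows Rnu11 (0.994) and Gm22973 (0.991).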

How the data were processed

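The authors deposited 2 tables of raw read counts over the same 5518 small RNA rows, one for TEsR and one for TruSeq, without normalization. The mm10 build and the tools bedtools 2.25.0, SAMtools 1.2.1, BWA 0.7.12 and cutadapt are named, per the submitters' processing notes. Their settings, the use of strand and the treatment of reads that match several rows or places were not given in the sources used here, nor were the RNAs that the capture probes targeted or the meaning of the tag q10 in the TEsR column names. The labels' protocols give mirVana isolation, and ribosomal RNA removal before TEsR. Without strand, reads antisense to a row cannot be told apart.

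Columns were assigned by name: MES by replicate, the others by group. The TruSeq table is named a control where the sample titles have induced cells, and groups follow the titles. Row types come from GENCODE vM21 by Ensembl identifier (5453 rows matched, 5452 at the same coordinates). Pairs overlap by at least 1 base. Sequences come from GENCODE vM21 and RefSeq (GRCm38.p6). Libraries of a group differed beyond sampling noise (chi-square divided by its degrees of freedom, 21.9 to 794 over rows with at least 10 counts in the pair of libraries).

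All 8 libraries entered 1 edgeR fit (edgeR 4.0.16, R 4.3.3, quasi-likelihood, robust, TMM scaling, filterByExpr with a minimum count of 10, Benjamini-Hochberg adjustment), tested on simulated data. Of the 375 rows tested, 254, 326 and 289 had an unadjusted p under 0.05 in MES against MEF TEsR, MEF TEsR against MEF TruSeq and MES against MEF TruSeq. CPM use the library's total, without TMM factors. Single-library shares have exact Clopper-Pearson 95% intervals, and a count of 0 allows up to 3 counts. Alternatives were DESeq2 1.42.0, library size only, no filter, identical overlapping rows entered once, only the compared groups, each library left out and the replicate number as a block, and, for descriptions, other overlaps, tolerances and denominators. The pairs, lists and rule for named rows (the members, other overlapping pairs with at least 10 counts, rows of the same host genes and the 3 most alike rows) were chosen with earlier results of these data known. Mmu-mir-7650 with Gm25500, with at most 3 counts, is the overlapping pair with counts that is not described. Snord20 and Snord59b, named by the rule, have no row under those symbols. They were searched by symbol only, so a row under another name would have been missed.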

Additional observations from a re-analysis of the deposited data

How the results depend on the processing

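Of the recomputed log2 fold changes of the 6 tested rows, 174 kept direction and side of the threshold, 7 gained a call, 3 lost one and 2 changed sign. With library size only, the MEF TEsR over MEF TruSeq value of Mir3068 was -0.38 in place of 0.17, and with single libraries left out it ran from -0.25 to 0.79. With DESeq2 it was 0.89 (adjusted p = 0.0253), while over its other alternatives the adjusted p was between 0.326 and 0.791. The other calls that changed stand in the report; the cause was not tested. Rows lower in MES than in MEF TEsR numbered 59 to 103 with single libraries left out, against 94. With CPM computed without the 2 leading rows of a library, 6 of the 10 rows were highest in MEF TEsR, against 3, since Mir3068, mmu-mir-664 and Snora36b changed order. The median over all rows moved with the scaling, from 0.53 (TMM) to 0.28 (DESeq2) and 0 (library size) for MES against MEF TEsR, from -1.86 to -1.18 and -2.49 for MEF TEsR against MEF TruSeq, and from -0.69 to -0.26 and -1.90 for MES against MEF TruSeq. Without the filter, the AL645522.1 pair was called lower in MEF TEsR (adjusted p = 0.00236) and in MES (adjusted p = 0.0414) than in MEF TruSeq, and mmu-mir-664 (adjusted p = 0.0470) lower in MES than in MEF TEsR. Leaving out 1 MES or TruSeq library leaves a lone sample, which is assumed to vary like the other groups. Counts equal within the pairs gave 3 of 5 under each overlap, strand and tolerance tried.

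A fit with the replicate block on the TEsR libraries called 117 rows higher and 77 lower in MES of 273, against 119 and 86 without it. Correlations of deviations between same-numbered MES and MEF libraries ran from -0.028 to 0.039. The deviations of MES 1 and MES 2 from their mean mirror each other, so these correlations cannot decide whether the numbers pair samples. The TruSeq columns carry no replicate number, so the block could not be fitted in their comparisons.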
